A study of Mus musculus with 27 samples.

Results

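The Wnt and R-spondin signals of liver zonation were followed as 10 genes of 55414 in the liver of 27 mice. They were chosen by name as genes of the pathway, with earlier results of these data known, and each was matched to its Ensembl identifier. Wnt2 and Wnt9b encode Wnt ligands and Rspo3 encodes R-spondin 3, which strengthens Wnt signals. Lgr4 and Lgr5 encode receptors for R-spondins, and Rnf43 and Znrf3 encode membrane ubiquitin ligases that remove Wnt receptors. Axin2, a scaffold of the β-catenin destruction complex, and Notum, a secreted enzyme that inactivates Wnt proteins, are feedback targets of the pathway. Notumos is a long noncoding RNA gene on the strand opposite to Notum.

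Carbon tetrachloride (CCl4), which is activated by Cyp2e1 in the hepatocytes around the central vein and kills them, was used to cause fibrosis in female Balb/c mice aged 8 weeks. The study asked whether less hyaluronan synthesis changes the fibrotic liver, using 4-methylumbelliferone (4MU), an inhibitor of that synthesis, or small interfering RNA against hyaluronan synthase 2 in lipid nanoparticles (siHAS2-LNP), with luciferase siRNA in the same particles (siLuc-LNP) as the non-targeting control. Olive oil was injected into the abdomen of the mice without CCl4, namely the control (n = 4, with saline in the tail vein), 4MU (n = 3), siLuc-LNP (n = 3) and siHAS2-LNP (n = 3) groups. CCl4 was injected in its place in the CCl4 (n = 2), CCl4 + 4MU (n = 4), CCl4 + siLuc-LNP (n = 4) and CCl4 + siHAS2-LNP (n = 4) groups. Injections were given 2 times a week over 2 weeks. The drug was given daily by gavage at 600 mg/kg, and the siRNA into the tail vein at 1 mg/kg and then at 0.5 mg/kg. Both were begun 2 days before the first CCl4 injection. Control mice were gavaged with carboxymethyl cellulose, in which the drug was mixed.

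In the liver, endothelial cells of the central vein and of the sinusoids near it release Wnt ligands and R-spondin 3. Hepatocytes close to them answer through β-catenin and express pericentral genes, among them Glul (glutamine synthetase), Slc1a2 (a glutamate transporter), Oat (ornithine aminotransferase) and Cyp2e1, the enzyme named above. Hepatocytes farther away, around the portal vein, receive little of this signal and carry out other tasks.

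The libraries held 7044386 to 29425937 counts, so that the floor of 3 counts, taken as the least that can be told from none, came to 0.102 to 0.426 CPM (counts scaled to the size of the library). The floor uses plain library totals, while the levels below use totals scaled between libraries (TMM), so the scales differ somewhat. The rank correlation with the other mice of the group had a median of 0.959 for CCl4 + siLuc-LNP mouse 4 and 0.968 for siLuc-LNP mouse 1, the lowest values, and CCl4 + siHAS2-LNP mouse 4 had the fewest counts. Leaving out these 3 libraries changed calls of the 10 genes in a single comparison, CCl4 + siLuc-LNP against CCl4, given below. The 6 hepatocyte markers of the list used here, among them Alb, summed to 69110 to 192610 CPM in every library. Has2, the target of the siRNA, had 0 counts in 25 libraries and 1 or 2 counts in the other two (CCl4 mouse 2 and CCl4 + siLuc-LNP mouse 4), so the knockdown could not be checked at this depth.

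Promoter sequence was available from RefSeq for 5 of the 10 genes (Wnt2, Wnt9b, Lgr4, Rnf43 and Axin2). The windows of the Wnt ligands and of the feedback target Axin2 are shown because the results below set ligands against target. Each runs from 250 bases before to 50 bases after the start of the gene on GRCm38.p6, and the capitals mark the 50 bases from the start on. That of Wnt2 lies at chr6:18030396-18030695 on the minus strand, that of Wnt9b at chr11:103749772-103750071 on the minus strand and that of Axin2 at chr11:108920099-108920398 on the plus strand.
Wnt2: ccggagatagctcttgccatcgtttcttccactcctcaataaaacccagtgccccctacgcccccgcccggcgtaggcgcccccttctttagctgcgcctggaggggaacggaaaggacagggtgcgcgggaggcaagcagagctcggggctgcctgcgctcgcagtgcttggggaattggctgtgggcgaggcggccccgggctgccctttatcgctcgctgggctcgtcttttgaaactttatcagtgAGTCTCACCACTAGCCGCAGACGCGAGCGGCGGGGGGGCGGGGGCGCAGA
Wnt9b: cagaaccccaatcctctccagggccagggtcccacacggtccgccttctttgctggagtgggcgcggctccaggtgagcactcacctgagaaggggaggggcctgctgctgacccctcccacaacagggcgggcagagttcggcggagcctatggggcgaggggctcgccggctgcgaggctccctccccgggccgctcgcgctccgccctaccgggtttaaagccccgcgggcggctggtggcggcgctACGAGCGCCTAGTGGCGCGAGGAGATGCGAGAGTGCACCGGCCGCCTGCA
Axin2: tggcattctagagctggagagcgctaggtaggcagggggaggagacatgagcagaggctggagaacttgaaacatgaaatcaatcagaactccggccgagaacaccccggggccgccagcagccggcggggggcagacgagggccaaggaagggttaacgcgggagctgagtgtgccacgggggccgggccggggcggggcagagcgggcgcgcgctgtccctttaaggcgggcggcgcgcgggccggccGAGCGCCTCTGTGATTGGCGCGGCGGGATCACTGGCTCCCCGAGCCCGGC

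T-cell factors, the DNA-binding partners of β-catenin, recognise the letters CTTTGAA or CTTTGAT, with the variants CTTTGTA or CTTTGTT. None of these letters stood on either strand in the windows of the 5 genes. Of 32851 RefSeq windows of the same length, 5544 (16.9%) held at least 1 of them.

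The 10 genes were expressed at very different levels. Per kilobase of exon, the mean level in control mice was 7.29 CPM for Notum, 5.65 CPM for Lgr4 and 3.15 CPM for Rnf43. It was 1.26 CPM for Rspo3, 1.03 CPM for Znrf3 and Notumos, 0.800 CPM for Axin2 and 0.572 CPM for Lgr5. The ligands were the lowest, at 0.133 CPM for Wnt9b and 0.120 CPM for Wnt2, again per kilobase. The plot of levels by mouse gives all 10 genes without this scaling.

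**Figure D1:**
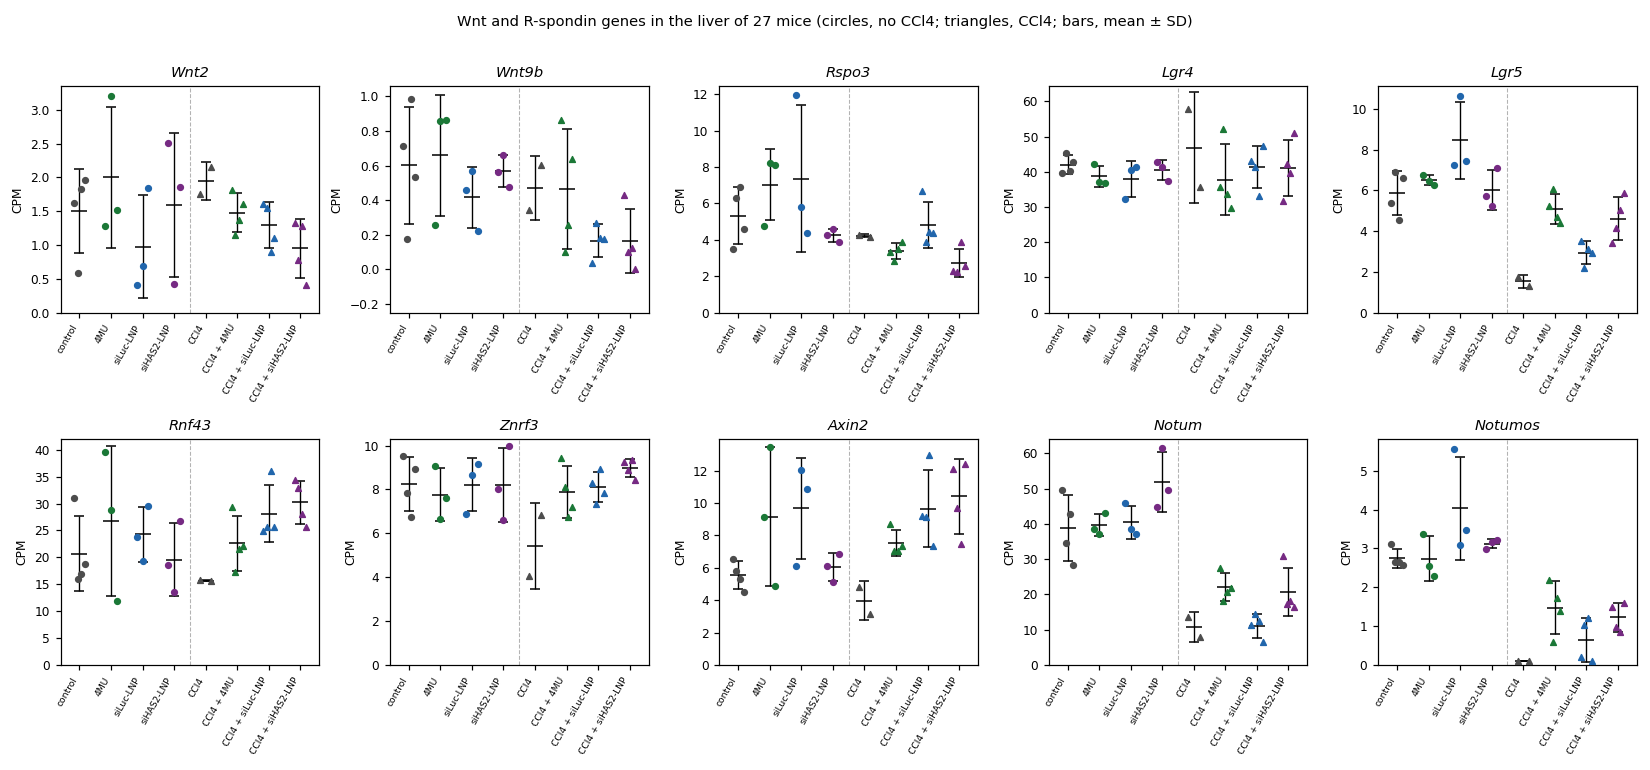
Level of each of the 10 genes in CPM (vertical axis) in the 8 groups (horizontal axis); each point is a mouse (circles without CCl4, triangles with CCl4) and bars are the mean ± SD. Notum and Notumos were lower in nearly all CCl4 mice than in all others, and Lgr5 was lowest in the 2 CCl4 mice. Wnt2, Lgr4 and Rnf43 overlapped between the mice with and without CCl4. Rnf43 was lower in the 2 CCl4 mice than in all treated CCl4 mice.

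Of the 10 genes, 9 reached the mean of 10 counts per library required for testing, and Wnt9b, with a mean of 9.56 counts, did not. Over the 4 treatment arms together, CCl4 lowered 4 of the 9 genes and raised none. Lower were Notumos, Notum, Lgr5 and Rspo3, while Wnt2, Lgr4, Rnf43, Znrf3 and Axin2 did not pass the test. CCl4 changed 51.9% of the 14114 genes tested, and 25.6% were lower, so 4 of 9 is set against a wide response. The median log2 fold change was -0.12 over the 9 genes and -0.02 over all genes tested. In whole liver, fewer cells of a type and less RNA per cell cannot be told apart.

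**Figure D2:**
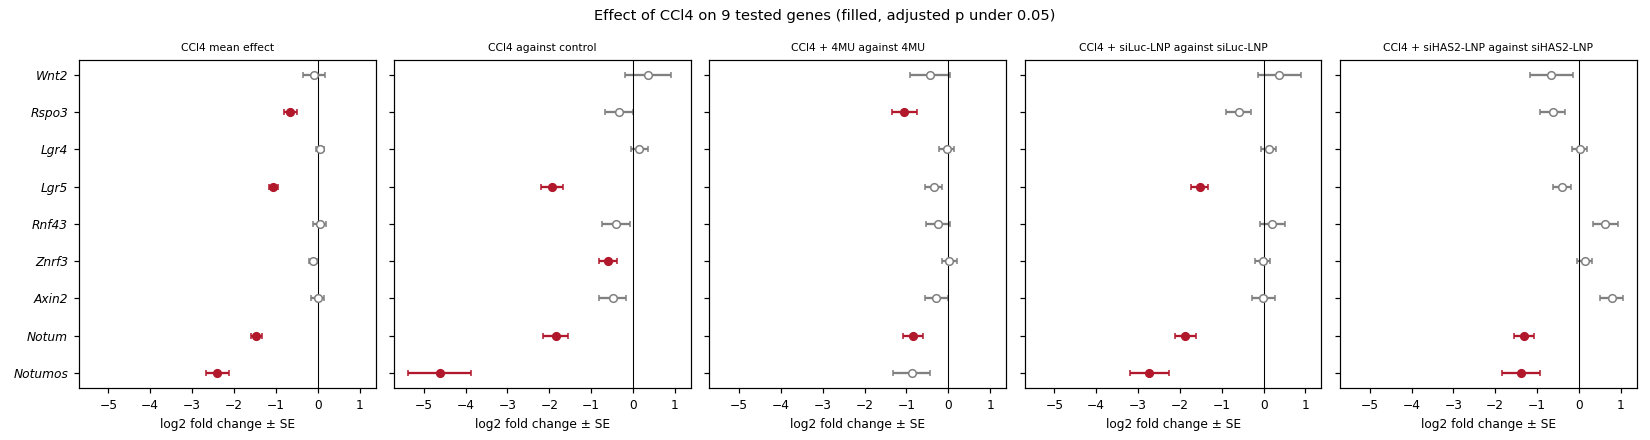
Log2 fold change by CCl4 (horizontal axis; bars, standard error) of the 9 tested genes (vertical axis), as the mean over the 4 arms and in each arm. Filled points passed an adjusted p of 0.05, and Notum, at -0.85 to -1.87, did so in each of the 4 arms.

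Wnt2 (ENSMUSG00000010797; chr6:17985468-18031892, minus strand, GRCm39) is a Wnt ligand of the endothelium near the central vein. Its level was 1.63, 0.590, 1.84 and 1.96 CPM in control mice, 1.28, 3.20 and 1.52 CPM in 4MU mice, 0.400, 0.684 and 1.85 CPM in siLuc-LNP mice and 2.50, 0.424 and 1.85 CPM in siHAS2-LNP mice. Under CCl4 it was 1.75 and 2.15 CPM without treatment, 1.81, 1.15, 1.37 and 1.60 CPM with 4MU, 1.61, 1.54, 0.900 and 1.11 CPM with siLuc-LNP and 1.33, 0.781, 1.28 and 0.401 CPM with siHAS2-LNP. Groups next to each other by mean overlapped, but both CCl4 mice were above all CCl4 + siLuc-LNP and all CCl4 + siHAS2-LNP mice. The log2 fold change by CCl4 over arms was -0.09 (standard error 0.26, adjusted p = 0.788, edgeR's quasi-likelihood test), and leaving out single mice moved it between -0.21 and 0.13.

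Wnt9b (ENSMUSG00000018486; chr11:103618189-103640655, minus strand), a Wnt ligand of the central vein endothelium, was close to the floor. It ranged from 0.177 to 0.982 CPM, median 0.565, in the 13 mice without CCl4. In the 14 CCl4 mice it ranged from 0 to 0.861 CPM, median 0.219, and 6 of them were below every mouse without CCl4. The lowest were CCl4 + siHAS2-LNP mouse 4 with 0 counts and CCl4 + siLuc-LNP mouse 1 with 1 count. In the first, the smallest library, 0 counts allow up to 0.426 CPM on the plain total. In a fit without the filter on low counts, where 31177 genes were tested, the CCl4 effect over arms was -0.91 (standard error 0.32, adjusted p = 0.0201, edgeR). No single-arm or treatment comparison of Wnt9b passed in that fit.

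Rspo3 (ENSMUSG00000019880; chr10:29327285-29411876, minus strand) encodes an R-spondin of the central vein endothelium. Its level was 3.51, 6.32, 6.92 and 4.58 CPM in control mice, 4.76, 8.24 and 8.10 CPM in 4MU mice, 12.0, 5.81 and 4.35 CPM in siLuc-LNP mice and 4.24, 4.62 and 3.89 CPM in siHAS2-LNP mice. Under CCl4 it was 4.28 and 4.18 CPM without treatment, 3.36, 2.84, 3.51 and 3.88 CPM with 4MU, 6.70, 3.86, 4.44 and 4.37 CPM with siLuc-LNP and 2.27, 2.25, 3.85 and 2.54 CPM with siHAS2-LNP. The highest value was that of siLuc-LNP mouse 1, a library that stood apart, and 6 of the 14 CCl4 mice were below every mouse without CCl4. The CCl4 effect over arms was -0.65 (standard error 0.15, adjusted p = 0.00105, edgeR), and it passed with each mouse left out, at -0.72 to -0.52.

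By arm, Rspo3 passed only between CCl4 + 4MU and 4MU mice, at -1.05 (standard error 0.29, adjusted p = 0.0109, edgeR), where the mice did not overlap. That call was lost without 4MU mouse 2 (adjusted p = 0.0549) or 4MU mouse 3 (adjusted p = 0.0544). The effects in the other arms were -0.33, -0.60 and -0.63, and no difference between arms in the effect on Rspo3 passed. Reads over 404 bases of its exons cannot be assigned to Rspo3 rather than the overlapping Gm48159, since the strand setting is not given in the sources used here.

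Since endothelium is a source of the ligands, each was also set against the mean log2 CPM of 10 pan-endothelial markers such as Pecam1 and Cdh5. This is a ratio of measurements, not a level per cell, and it does not show which cells made the ligand RNA. Of the 10 markers, 2 were higher with CCl4 over arms and none lower, where 26.3% of all tested genes were higher and 25.6% lower. The 2 were Tie1 at 0.53 (standard error 0.14, adjusted p = 0.00235) and Pecam1 at 0.33 (standard error 0.13, adjusted p = 0.0398). The summed level of the 10 markers ranged from 60.7 to 155 CPM without CCl4 and from 62.4 to 149 CPM with it. No marker was at 0 in all mice of a group.

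Relative to these markers, Rspo3 was lower with CCl4 by 0.84 on the log2 scale and Wnt9b by 1.08, as a mean over arms. The 2-sided exact permutation test within arms (643125 relabellings) gave adjusted p = 0.000452 for Rspo3 and 0.00137 for Wnt9b, over 3 ligands. For Wnt2 the difference was -0.18 (adjusted p = 0.379, exact permutation test). Of 10 sinusoidal markers, 6 were higher and 1 lower with CCl4 over arms, where 26.3% of all tested genes were higher and 25.6% lower. With these 10 as the reference, the Wnt2 difference was -0.46 and passed (adjusted p = 0.0297, exact permutation test), so the call for Wnt2 depended on the reference. In each of the 4 arms the mean ratio of Rspo3 was lower with CCl4, by 0.73 in the control arm, 1.00 with 4MU, 0.89 with siLuc-LNP and 0.75 with siHAS2-LNP. For Wnt9b the difference was -0.62 in the control arm, -0.55 with 4MU, -1.39 with siLuc-LNP and -1.74 with siHAS2-LNP.

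**Figure D3:**
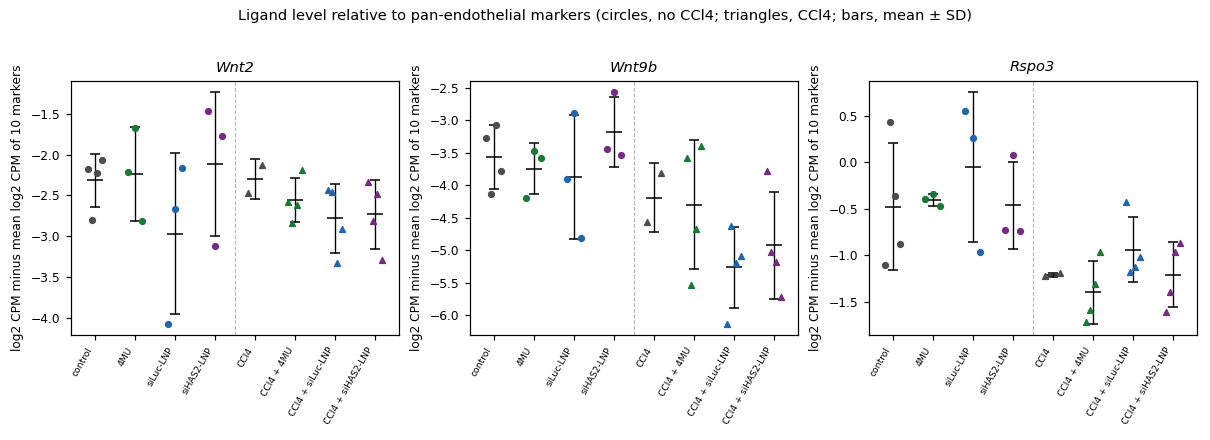
Log2 CPM of each ligand minus the mean log2 CPM of 10 pan-endothelial markers (vertical axis) in each mouse of the 8 groups (horizontal axis; bars, mean ± SD). As a mean over arms Rspo3 and Wnt9b were lower with CCl4, by 0.84 and 1.08, and Wnt2 differed by -0.18. Mice with and without CCl4 overlapped for each ligand.

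Lgr4 (ENSMUSG00000050199; chr2:109747839-109844609, plus strand), an R-spondin receptor of hepatocytes, had similar medians with and without CCl4. Its spread was wider with CCl4 (SD 8.54 CPM) than without (SD 3.42 CPM). It ranged from 32.2 to 45.5 CPM, median 40.6, in the 13 mice without CCl4, and from 29.6 to 58.0 CPM, median 40.5, in the 14 CCl4 mice. The 2 CCl4 mice lay at 58.0 and 35.7 CPM, and of the 14 CCl4 mice 4 were above and 2 below every mouse without CCl4. The CCl4 effect over arms was 0.06 (standard error 0.09, adjusted p = 0.601, edgeR), and Lgr4 passed in none of the 15 comparisons made.

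Lgr5 (ENSMUSG00000020140; chr10:115286216-115423685, minus strand) is both an R-spondin receptor and a target of the pathway in pericentral hepatocytes. Its level was 5.39, 6.91, 4.57 and 6.62 CPM in control mice, 6.76, 6.44 and 6.28 CPM in 4MU mice, 7.27, 10.7 and 7.47 CPM in siLuc-LNP mice and 5.74, 5.23 and 7.12 CPM in siHAS2-LNP mice. Under CCl4 it was 1.75 and 1.32 CPM without treatment, 5.25, 6.08, 4.69 and 4.38 CPM with 4MU, 3.53, 2.199, 3.12 and 2.91 CPM with siLuc-LNP and 3.41, 4.15, 5.02 and 5.88 CPM with siHAS2-LNP. The 2 CCl4 mice were below all 25 others, and the CCl4 + siLuc-LNP mice came next and overlapped only with CCl4 + siHAS2-LNP mice.

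Between CCl4 and control mice the log2 fold change of Lgr5 was -1.94 (standard error 0.27, adjusted p = 5.86e-06, edgeR), and its effect over arms was -1.06 (standard error 0.11, adjusted p = 2.35e-08). In the siLuc-LNP arm it fell by 1.52 (standard error 0.21, adjusted p = 7.79e-06). The effect was -0.35 with 4MU (adjusted p = 0.223) and -0.41 with siHAS2-LNP (adjusted p = 0.213), and neither passed. For 4MU the difference between its arm and the control arm was itself tested, at 1.59 (standard error 0.33, adjusted p = 0.0127), and it passed.

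Rnf43 (ENSMUSG00000034177; chr11:87553548-87626377, plus strand) ranged from 12.0 to 39.5 CPM, median 19.4, in the mice without CCl4. In the CCl4 mice it ranged from 15.6 to 36.1 CPM, median 25.7, within the range of the others. The 2 mice given CCl4 alone, at 15.8 and 15.6 CPM, were below all treated CCl4 mice. Against them Rnf43 differed by 0.53 with 4MU, 0.84 with siLuc-LNP and 0.95 with siHAS2-LNP (adjusted p = 0.281, 0.258 and 0.0626, edgeR). The CCl4 effect over arms was 0.05 (standard error 0.15, adjusted p = 0.799, edgeR), and no comparison of Rnf43 passed in this fit. Znrf3 (ENSMUSG00000041961; chr11:5226324-5394939, minus strand), its paralog, ranged from 6.60 to 9.99 CPM, median 8.04, without CCl4 and from 4.04 to 9.42 CPM, median 8.22, with it. Its lowest value, 4.04 CPM, was that of CCl4 mouse 1, and CCl4 mouse 2 had 6.82 CPM.

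Znrf3 was lower in CCl4 than in control mice by 0.60 (standard error 0.21, adjusted p = 0.0314, edgeR), a call that was lost without CCl4 mouse 1 (adjusted p = 0.444), where the lone CCl4 mouse left was assumed to vary like the other groups. Without control mouse 1 or control mouse 4 it was also lost (adjusted p = 0.0725 and 0.0641), as it was with limma-voom (0.0977), without the filter on low counts (0.113), with the replicate block (0.0547) and with only the compared groups (0.114). Over arms its effect was -0.12 (standard error 0.09, adjusted p = 0.309).

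Axin2 (ENSMUSG00000000142; chr11:108811169-108841609, plus strand) is often used as the general read-out of Wnt signalling. Its level was 6.57, 5.78, 5.34 and 4.50 CPM in control mice, 9.17, 13.4 and 4.86 CPM in 4MU mice, 6.12, 12.0 and 10.9 CPM in siLuc-LNP mice and 6.10, 5.14 and 6.88 CPM in siHAS2-LNP mice. Under CCl4 it was 4.82 and 3.13 CPM without treatment, 8.73, 7.03, 7.06 and 7.37 CPM with 4MU, 9.21, 9.14, 12.97 and 7.35 CPM with siLuc-LNP and 12.1, 9.72, 7.47 and 12.4 CPM with siHAS2-LNP. All 12 treated CCl4 mice were above both CCl4 mice and above all 4 control mice. No CCl4 comparison of Axin2 passed, with -0.49 in the control arm (standard error 0.32, adjusted p = 0.257, edgeR), 0.78 in the siHAS2-LNP arm (standard error 0.28, adjusted p = 0.0663) and 0.00 over arms (standard error 0.16, adjusted p = 0.999). Axin2 shares 209 exon bases with Gm11670 on the other strand.

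Notum (ENSMUSG00000042988; chr11:120541446-120552019, minus strand) cuts off the lipid that Wnt proteins need to bind their receptors. Its level was 49.6, 34.5, 42.7 and 28.3 CPM in control mice, 38.5, 37.2 and 43.2 CPM in 4MU mice, 45.8, 38.5 and 37.1 CPM in siLuc-LNP mice and 44.6, 61.4 and 49.7 CPM in siHAS2-LNP mice. Under CCl4 it was 13.7 and 7.87 CPM without treatment, 27.4, 18.2, 20.7 and 21.9 CPM with 4MU, 11.2, 14.5, 12.4 and 6.45 CPM with siLuc-LNP and 30.8, 17.3, 18.1 and 16.6 CPM with siHAS2-LNP. Of the 14 CCl4 mice, 13 were below every mouse without CCl4, the exception being CCl4 + siHAS2-LNP mouse 1.

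The CCl4 effect on Notum over arms was -1.47 (standard error 0.13, adjusted p = 1.31e-09, edgeR), and it stayed between -1.57 and -1.38 with each mouse left out. Notum was lower in each arm, by 1.85 in the control arm (adjusted p = 5.62e-05), 0.85 with 4MU (adjusted p = 0.0130), 1.87 with siLuc-LNP (adjusted p = 5.42e-06) and 1.32 with siHAS2-LNP (adjusted p = 0.000679). The call with 4MU was lost without 4MU mouse 3 (adjusted p = 0.0552).

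Notumos (ENSMUSG00000053613; chr11:120549983-120552645, plus strand) lies across the start of Notum, and 2037 of its 2663 exon bases are also Notum exon on the other strand. The library kit marked the strand, but the strand setting of the counting is not given in the sources used here, so reads of the pair may be mixed. In the 13 mice without CCl4 Notumos ranged from 2.28 to 5.55 CPM, median 3.08. The 2 CCl4 mice had 2 and 3 counts (0.0973 and 0.113 CPM), and the CCl4 + siLuc-LNP mice had 0.196, 1.04, 1.20 and 0.104 CPM. The CCl4 + 4MU mice had 2.19, 0.598, 1.74 and 1.39 CPM and the CCl4 + siHAS2-LNP mice 1.49, 0.977, 0.843 and 1.60 CPM. All 14 CCl4 mice were below all 13 others.

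Summed over mice, Notumos was 25.8 times as high in control as in CCl4 mice, with a 95% counting interval of 10.9 to 80.1 from 231 and 5 counts, which covers counting error only. The fitted CCl4 effect over arms was -2.40 (standard error 0.28, adjusted p = 9.29e-08, edgeR). It passed in the control arm (adjusted p = 5.55e-05) and with siLuc-LNP, at -2.73 (adjusted p = 0.000162). With siHAS2-LNP it was -1.39 (adjusted p = 0.0469), a call lost whichever mouse of that arm was left out (adjusted p = 0.0531 to 0.136), and with 4MU it was -0.87 (adjusted p = 0.157).

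Counted by arm, 4 of the 9 tested genes were lower in CCl4 than in control mice (Lgr5, Znrf3, Notum and Notumos), where 34.0% of all genes passed and 16.1% were lower. In the 4MU arm 2 were lower (Rspo3 and Notum), where 23.7% passed and 10.5% were lower. In the siLuc-LNP arm 3 were lower (Lgr5, Notum and Notumos), where 24.2% passed and 11.2% were lower. In the siHAS2-LNP arm 2 were lower (Notum and Notumos), where 12.8% passed and 5.09% were lower. None of the 9 was higher in any arm.

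The treatments, begun before the first CCl4 injection, were then compared within the CCl4 mice. The question there is whether a treatment changes the liver of mice given CCl4. All 3 comparisons with untreated CCl4 mice share the same 2 mice. Between CCl4 + 4MU and CCl4 mice, 4 of the 9 genes were higher and none lower, where 18.3% of all genes passed and 8.28% were higher. Between CCl4 + siHAS2-LNP and CCl4 mice, 5 of the 9 were higher and none lower, where 14.4% passed and 7.11% were higher. Between CCl4 + siLuc-LNP and CCl4 mice none passed in edgeR or limma-voom, where 0.248% and 1.24% of all genes passed. DESeq2 called 2 of the 9, where it called 2.09% of all genes. In edgeR the unadjusted p was under 0.05 for 5 of the 9 and for 2001 of the 14114 genes tested.

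That count of 0 depended on CCl4 + siLuc-LNP mouse 4, a library that stood apart. Without it 3 of the 9 genes were higher with siLuc-LNP in edgeR, namely Lgr5 at 0.95 (adjusted p = 0.0387), Axin2 at 1.40 (adjusted p = 0.0141) and Notumos at 2.83 (adjusted p = 0.0162), and 7.63% of all genes passed. Without all 3 libraries that stood apart, the same 3 genes passed (adjusted p = 0.0339, 0.00936 and 0.0162), where 8.47% of all genes did. Without the filter on low counts Rnf43 (adjusted p = 0.0476), Axin2 (adjusted p = 0.00218) and Notumos (adjusted p = 0.0257) passed, where 1.37% did.

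**Figure D4:**
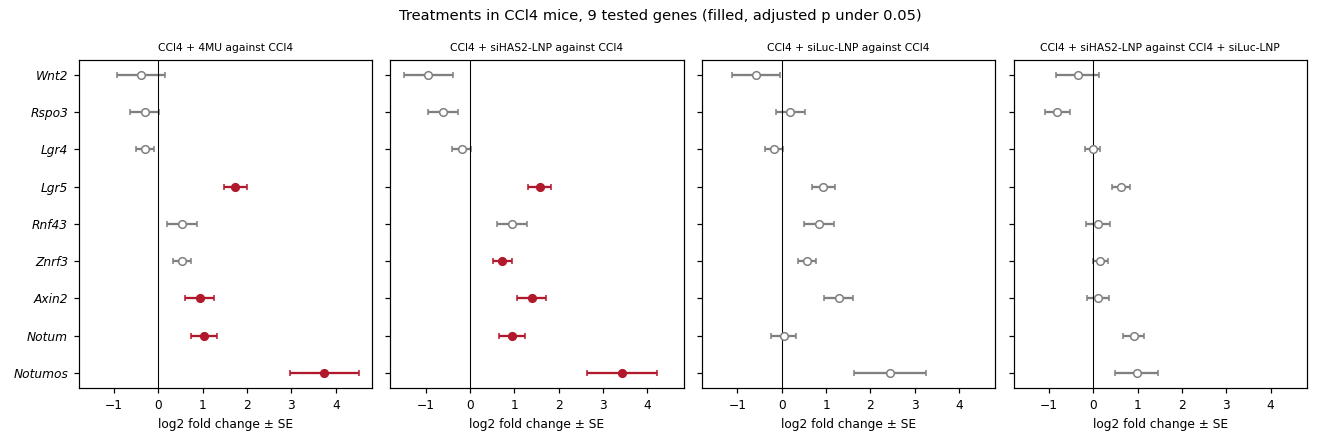
Log2 fold change (horizontal axis; bars, standard error) of the 9 tested genes (vertical axis) between treated and untreated CCl4 mice and between CCl4 + siHAS2-LNP and CCl4 + siLuc-LNP mice. Filled points passed an adjusted p of 0.05, which were 4 genes with 4MU, 5 with siHAS2-LNP and none in the other panels, in the fit of all 27 mice.

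Lgr5 was higher than in CCl4 mice by 1.73 with 4MU (standard error 0.27, adjusted p = 0.000631, edgeR) and by 1.57 with siHAS2-LNP (standard error 0.27, adjusted p = 0.00111). With siLuc-LNP the difference was 0.94 (standard error 0.26, adjusted p = 0.101). All 12 treated mice were above both CCl4 mice. DESeq2 called Lgr5 with siLuc-LNP as well (adjusted p = 0.0469), as did edgeR without CCl4 + siLuc-LNP mouse 4.

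Axin2 was higher by 0.93 with 4MU (standard error 0.33, adjusted p = 0.0480, edgeR) and by 1.39 with siHAS2-LNP (standard error 0.33, adjusted p = 0.00824), and the difference with siLuc-LNP was 1.28 (standard error 0.33, adjusted p = 0.0799). With any CCl4 + 4MU mouse left out the call with 4MU was lost (adjusted p = 0.0543 to 0.0940), and so it was with limma-voom (0.0997), with the size factors of DESeq2 (0.0561), with filterByExpr (0.0627) and with the replicate block (0.0555). DESeq2 called Axin2 with siLuc-LNP too (adjusted p = 0.0123), as did edgeR without CCl4 + siLuc-LNP mouse 4.

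Notum was higher by 1.03 with 4MU (standard error 0.29, adjusted p = 0.0178, edgeR) and by 0.95 with siHAS2-LNP (standard error 0.29, adjusted p = 0.0325), and the difference with siLuc-LNP was 0.04 (standard error 0.29, adjusted p = 0.966). The call with siHAS2-LNP was lost without CCl4 + siHAS2-LNP mouse 1, the highest of its group (0.69, adjusted p = 0.101), with limma-voom (adjusted p = 0.0802) and when the fit held no other groups (adjusted p = 0.0647). Notumos was higher with 4MU (adjusted p = 0.00243, edgeR) and with siHAS2-LNP (adjusted p = 0.00658), though limma-voom did not call it with siHAS2-LNP (adjusted p = 0.0749). With siLuc-LNP its difference was 2.45 (standard error 0.81, adjusted p = 0.163), which passed without CCl4 + siLuc-LNP mouse 4. In summed counts it was 14.3 times as high with 4MU as in CCl4 mice (95% counting interval 5.97 to 44.5), 10.9 times with siHAS2-LNP (4.51 to 34.5) and 5.34 times with siLuc-LNP (2.16 to 17.1).

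With siHAS2-LNP Znrf3 was higher, at 0.72 (standard error 0.21, adjusted p = 0.0264, edgeR), a call lost without CCl4 mouse 1 (adjusted p = 0.299) or CCl4 + siHAS2-LNP mouse 3 (adjusted p = 0.0554). The ligands did not pass in any of these comparisons, with values of -0.31 for Rspo3 and -0.40 for Wnt2 with 4MU and of -0.62 and -0.95 with siHAS2-LNP.

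Most of these calls were lost without CCl4 mouse 2, which had the lower Lgr5, Axin2 and Notum of the pair and the higher Notumos. Without it the calls kept were Lgr5 with 4MU, at 1.505, and Znrf3 with siHAS2-LNP, at 1.12. The lone CCl4 mouse was again assumed to vary like the other groups. Lgr5 with siHAS2-LNP was then 1.34, Axin2 was 0.62 with 4MU and 1.07 with siHAS2-LNP, and Notum was 0.65 and 0.57. Notumos was not called either, with differences about as large as before, at 3.83 with 4MU and 3.51 with siHAS2-LNP. Without CCl4 mouse 1 the differences with 4MU were 1.93 for Lgr5, 1.26 for Axin2, 1.47 for Notum and 3.64 for Notumos.

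In CCl4 + siHAS2-LNP against CCl4 + siLuc-LNP mice, which tests the siRNA target with the particle held the same, none of the 9 genes passed in edgeR, where 1.09% of all genes did. The unadjusted p was under 0.05 for 3 of them, and for 2349 of the 14114 genes tested. Notum differed most by its p, at 0.91 (standard error 0.23, adjusted p = 0.0550), and its mice did not overlap, with 16.6 to 30.8 CPM against 6.45 to 14.5 CPM. DESeq2 called it (0.88, adjusted p = 0.0183), where it called 412 of the 14114 genes tested. Of the 9 genes limma-voom called none, where it called 12 of all genes tested. Lgr5 differed by 0.63 (standard error 0.20, adjusted p = 0.114) and Rspo3 by -0.82 (standard error 0.28, adjusted p = 0.139). The 10 pan-endothelial markers summed to 62.4 to 98.2 CPM in CCl4 + siHAS2-LNP mice and to 111 to 135 CPM in CCl4 + siLuc-LNP mice, without overlap, and their part in the Rspo3 difference was not tested.

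Whether a treatment altered the response to CCl4 was tested as an interaction. For 4MU, 2 of the 9 genes passed, both higher, where 5.67% of all genes passed and 2.72% were higher. They were Lgr5, given above, and Notumos at 3.75 (standard error 0.90, adjusted p = 0.0244, edgeR), and without CCl4 mouse 2, with 1 mouse left in that group, neither passed, at 1.36 for Lgr5 (adjusted p = 0.117) and 3.84 for Notumos (adjusted p = 0.143). For siLuc-LNP none of the 9 passed in edgeR, DESeq2 or limma-voom, where 0.00709% of genes passed in edgeR. The unadjusted p was under 0.05 for 1 of the 9 and for 1411 of the 14114 genes tested. For siHAS2-LNP against siLuc-LNP none passed with the 3 tools, where 0.0354% passed in edgeR. The unadjusted p was under 0.05 for 1 of the 9 and for 1612 of the 14114 genes tested.

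Without CCl4, none of the 9 genes passed in any comparison with edgeR, DESeq2 or limma-voom. In edgeR 0.00709% of all genes passed between 4MU and control mice, 0.213% between siLuc-LNP and control mice and 0.0425% between siHAS2-LNP and siLuc-LNP mice. The unadjusted p was under 0.05 for 1, 2 and 3 of the 9 genes, and for 966, 960 and 1262 of the 14114 genes tested. The lowest adjusted p in these comparisons was 0.435, for Axin2 with siLuc-LNP, at 0.81 (standard error 0.27).

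Pericentral hepatocyte genes, from a list of 14, were lower with CCl4 in 13 cases, and none was higher, where 25.6% of all tested genes were lower. Glul fell from 452 to 1098 CPM, median 789, without CCl4 to 37.5 to 59.8 CPM, median 49.5, with it, a log2 fold change over arms of -3.96 (standard error 0.13, adjusted p = 3.89e-17, edgeR). Oat fell by 4.04 (standard error 0.14, adjusted p = 3.89e-17) and Cyp2e1 by 2.83 (standard error 0.20, adjusted p = 2.99e-11). Slc1a2 had 1491 to 2613 counts in the mice without CCl4 and 0 to 20 counts in those with it.

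Within the CCl4 mice these genes did not move together. Cyp2e1 was higher than in CCl4 mice by 2.33 with 4MU (standard error 0.45, adjusted p = 0.00168, edgeR) and by 2.07 with siHAS2-LNP (standard error 0.44, adjusted p = 0.00420). Glul differed by -0.17 (adjusted p = 0.649) with 4MU and by -0.28 (adjusted p = 0.458) with siHAS2-LNP. Oat was lower with siHAS2-LNP, at -0.77 (standard error 0.24, adjusted p = 0.0338), and the difference with 4MU was 0.22 (adjusted p = 0.556). These siHAS2-LNP differences hold the effects of particle and siRNA together. As log2 of the group mean over the control mean, Cyp2e1 was -4.17 in CCl4, -2.97 in CCl4 + siLuc-LNP and -2.10 in CCl4 + siHAS2-LNP mice. In the same order Glul was -3.73, -3.86 and -4.01, and Oat was -3.71, -3.99 and -4.48. Of the 14 genes, 7 were higher with 4MU, where 8.28% of all genes were, and 6 were higher and 1 lower with siHAS2-LNP, where 7.11% of all genes were higher and 7.33% lower.

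**Figure D5:**
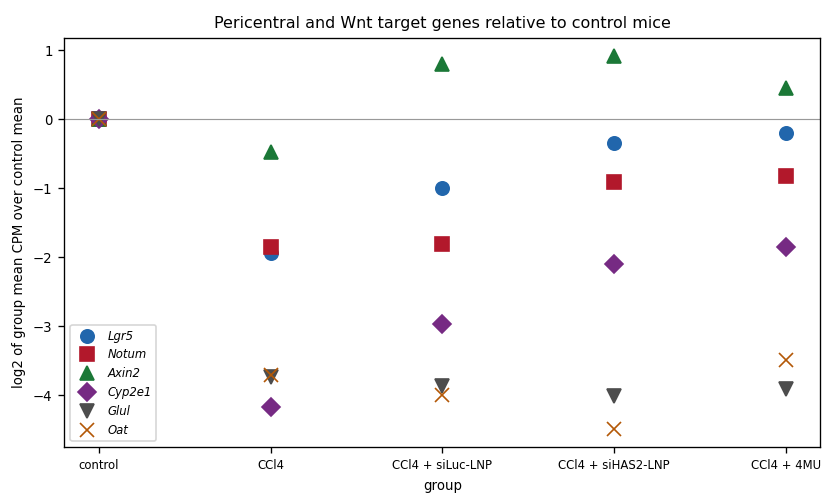
Log2 of the group mean CPM over the control mean (vertical axis) for 6 genes in control mice and the 4 CCl4 groups (horizontal axis). Glul and Oat stay between -3.49 and -4.48 in all CCl4 groups, Cyp2e1 goes from -4.17 in CCl4 to -1.84 in CCl4 + 4MU, and Lgr5 from -1.94 to -0.20.

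The other genes of the pathway were read from lists chosen with earlier results known. Where siHAS2-LNP is compared with CCl4 mice below, the values hold the effects of particle and siRNA together, and those with siLuc-LNP are not given. Their counts stand against the 26.3% of all genes that were higher and the 25.6% that were lower with CCl4 over arms, and calls in about as many members as that are no result about a list. Of 20 other Wnt and R-spondin genes, 6 were high enough to test, of which 1 was lower with CCl4 over arms, Wnt4 at -0.69 (standard error 0.22, adjusted p = 0.0126, edgeR), and 1 higher, Wnt5b at 0.37 (standard error 0.12, adjusted p = 0.00994). Porcn, the enzyme that adds the lipid to Wnt proteins, was lower by 1.10 (standard error 0.13, adjusted p = 2.39e-07), and Wls, which carries them to the surface, was higher by 0.70 (standard error 0.15, adjusted p = 0.000347). Porcn was higher than in CCl4 mice by 1.74 with 4MU (adjusted p = 0.00126) and 1.47 with siHAS2-LNP (adjusted p = 0.00492).

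Of 11 tested Frizzled receptors and co-receptors, 2 were higher and 3 lower with CCl4, with Fzd8 at -0.98 and Tspan12 at -0.73 the lowest and Adgra2 at 0.68 and Fzd6 at 0.45 the highest. Of 5 tested antagonists of Wnt signals, which bind Wnt proteins or their receptors, 2 were higher and 2 lower. Higher were Frzb at 1.62 (standard error 0.19, adjusted p = 1.08e-07, edgeR) and Dkk3 at 1.33 (standard error 0.20). Lower were Igfbp4 at -0.38 and Kremen1, a membrane protein, at -0.31. Frzb was lower than in CCl4 mice with 4MU, by 1.33 (adjusted p = 0.0147), and with siHAS2-LNP, by 1.59 (adjusted p = 0.00726). Of the 14 genes tested of the β-catenin core and destruction complex, 3 were higher and 1 lower, with Tnks at 0.40, Ctnnb1 (β-catenin itself) at 0.35 and Dvl1 at -0.28.

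Of 11 tested nuclear effectors, 1 was higher, Tle4 at 0.51, and 3 lower, with Tle2, a corepressor, at -1.32 (standard error 0.19, adjusted p = 4.42e-06, edgeR) and Tcf7 at -0.40. Tle2 was higher than in CCl4 mice by 2.53 with 4MU (adjusted p = 0.00159) and by 2.42 with siHAS2-LNP (adjusted p = 0.00299). Of 5 other tested feedback targets, 3 were lower, led by the transcription factor gene Sp5 at -1.59 (standard error 0.31, adjusted p = 0.000136) and the receptor gene Tnfrsf19 at -0.79, and Ccnd1, which encodes cyclin D1, was higher at 0.87 (standard error 0.28, adjusted p = 0.0114).

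Some markers of other cells differed with CCl4 as well, and their part in the results above was not tested. Over all tested genes 26.3% were higher and 25.6% lower with CCl4. Counts near these shares, such as those of hepatocyte markers and periportal genes below, are no result about a list. All 6 cycling cell markers were higher over arms, with a median log2 fold change of 4.36 and a summed level of 49.1 to 618 CPM against 2.56 to 31.2 CPM, and all 6 were lower with 4MU than in CCl4 mice, where 1412 of the 14114 genes were lower. All 5 tested ductal epithelial markers were higher, at 109 to 692 CPM in sum against 29.6 to 77.1 CPM. Of the other lists, 2 of 6 hepatocyte markers were lower, 3 of 6 macrophage markers lower, 3 of 6 lymphocyte markers lower, 4 of 10 stellate cell markers higher and 4 lower, and 3 of 12 periportal hepatocyte genes higher and 3 lower. In sum the hepatocyte markers came to 69110 to 169347 CPM with CCl4 and 119400 to 192610 CPM without, the macrophage markers to 128 to 454 and 169 to 525 CPM, the lymphocyte markers to 1.07 to 5.38 and 3.07 to 8.81 CPM, and the stellate cell markers to 254 to 560 and 351 to 633 CPM. Thbd, the only 1 of 2 pericentral endothelial markers to pass, was higher by 0.72 (standard error 0.22, adjusted p = 0.00787, edgeR), and in CCl4 + siHAS2-LNP mice it was lower than in CCl4 mice by 1.57 (adjusted p = 0.0229).

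Some of these markers also differed between treated and untreated CCl4 mice, beside the calls on Lgr5, Axin2, Notum and Notumos, and their part in those calls was not tested. The hepatocyte markers summed to 69110 to 121913 CPM in CCl4 mice, 141299 to 169347 CPM with 4MU, 97989 to 142730 CPM with siLuc-LNP and 104029 to 157777 CPM with siHAS2-LNP. The cycling cell markers summed to 326 to 618 CPM in CCl4 mice, 49.1 to 219.6 CPM with 4MU, 178 to 519 CPM with siLuc-LNP and 160.2 to 190.1 CPM with siHAS2-LNP. The macrophage markers summed to 296 to 310 CPM in CCl4 mice, 246 to 454 CPM with 4MU, 174 to 266 CPM with siLuc-LNP and 128 to 169 CPM with siHAS2-LNP. In these sums hepatocyte markers were higher with 4MU, cycling cell markers lower with 4MU and siHAS2-LNP, and macrophage markers lower with both particles. None of these overlapped with the 2 CCl4 mice. The sums were not tested, separation from only 2 mice can arise by chance, and the other marker lists are not given by treatment here.

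Whether mice with more ligand had more target was examined separately in the 14 CCl4 mice and the 13 others, since CCl4 splits the mice into 2 clusters. The 3 ligands were set against Axin2, Lgr5 and Glul in log2 CPM, which makes 18 relations. None passed after adjustment on the levels themselves, the lowest adjusted p being 0.381 for Pearson's r and 0.209 for Spearman's rho (permutation tests). The closest was Wnt2 with Axin2 in the CCl4 mice, with r = -0.63 (permutation p = 0.0212) and rho = -0.55 (permutation p = 0.0464), and r was -0.63 without the 2 mice farthest from the median of Wnt2. The mice of each set come from 4 treatment groups, so the relations were also computed on deviations from the group means. There 1 of the 18 passed, Wnt9b with Lgr5 in the 14 CCl4 mice, with r = -0.77 (permutation p = 0.00147, adjusted p = 0.0265) and rho = -0.78 (permutation p = 0.00189, adjusted p = 0.0340), and r was -0.66 without the 2 mice farthest from the median of Wnt9b. Wnt9b was close to the floor in these mice. The permutation shuffled the 14 deviations as if they were independent, though the means of 4 groups had been taken from them. Its p-values can therefore be too small, and no conclusion is drawn from this call.

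Finally, the genes whose 8 group means were most like those of each lowered gene were listed among 12886 tested genes, by the root-mean-square difference of centred log2 CPM. For Notum they were Lrrc51 (0.10), Pon1 (0.16) and Cyp2c54 (0.18), the last 2 being genes of liver enzymes. For Lgr5 they were Arhgef37 (0.12), Aspdh (0.14) and Mapk1ip1 (0.15). For Rspo3 they were Smad7 (0.14), Kcnj8 (0.14) and Ngfr (0.17), the last being in the list of stellate cell markers used here. For Notumos they were Cux2 (0.35), Cyp2e1 (0.38) and Ces3b (0.38).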

How the data were processed

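Polyadenylated RNA from liver homogenate was sequenced in read pairs after a kit that marks the strand. To make the deposited counts, the authors trimmed reads (Trimmomatic 0.39), aligned them to GRCm39 using HISAT2, and counted read pairs per gene by featureCounts on Ensembl annotation. The HISAT2 version and the strand used in counting are not given in the sources used here. The deposited counts of 55414 genes were used as they stand, with symbols and positions from GENCODE (54749 matched). Total counts were 7044386 to 29425937 per library.

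The 10 genes and all lists were chosen with earlier results of these data known. The 14114 genes averaging 10 or more counts in the libraries entered a single fit of all 8 groups in edgeR 4.0.16 (R 4.3.3) with TMM scaling and the quasi-likelihood test, and p-values were adjusted by Benjamini-Hochberg over all tested genes at 0.05. CPM uses TMM-scaled totals, except for the floor, which uses plain totals. Standard errors are the fold change divided by the root of F. The effect over arms is the mean of the 4 CCl4 groups minus that of the others. CPM for ratios and relations was taken as log2 with a prior count of 2. The labels give replicate numbers, which were taken as separate mice. The edgeR tests use a spread between mice estimated from all 8 groups together, not from the compared groups alone. Promoters are RefSeq windows on GRCm38.p6, and gene positions are GRCm39.

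Named genes were the 10 genes in every comparison, Has2, 4 pericentral genes, up to 2 highest and 2 lowest passing genes of each other list in the CCl4 effect over arms, and the 3 most similar genes, predicted genes left out. Alternatives were DESeq2 1.42.0, limma-voom (limma 3.58.1) with quality weights, other size factors, no filter, filterByExpr, a replicate block, only the compared groups and each mouse left out. Leaving out 3 libraries that stood apart was chosen after seeing the data. The fits were tested on simulated data first. No pair of libraries agreed within sampling noise (chi-square per degree of freedom 15.9 to 458 over 34 pairs). All other steps used scipy 1.17.1, numpy 2.4.6, matplotlib 3.10.9 and pandas 2.3.3 under Python 3.11.15.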

Additional observations from a re-analysis of the deposited data

Results flagged for a closer look

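Among 40 gaps tested within groups of 4 mice with Dixon's ratio, 3 were past the critical value, where chance gives about 5%. Rnf43 was 36.1 CPM in CCl4 + siLuc-LNP mouse 3, above the other 3 mice of its group. Notum was 30.8 CPM in CCl4 + siHAS2-LNP mouse 1, far above the rest of its group. Notumos was 3.10 CPM in control mouse 1, above the other control mice.

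The effect of CCl4 differed between 4MU and control arms for Lgr5, with an interaction of 1.59 on the log2 scale (adjusted p = 0.0127, edgeR), and for Notumos, with an interaction of 3.75 (adjusted p = 0.0244, edgeR). Both use the 2 CCl4 mice. Without CCl4 mouse 2 neither passed, and the interactions were 1.36 for Lgr5 and 3.84 for Notumos.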

How the results depend on the processing

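The 4 lower genes of the CCl4 effect over arms (Rspo3, Lgr5, Notum and Notumos) passed under each alternative and with each mouse left out. Counts of passing genes moved by over 1.5 times as follows. For CCl4 + siLuc-LNP against CCl4, none passed in the reported fit, 2 with DESeq2, 3 without the filter on low counts, 3 without the libraries that stood apart, and 0 to 3 with single mice left out (3 without CCl4 + siLuc-LNP mouse 4). For CCl4 + siHAS2-LNP against CCl4 + siLuc-LNP, 1 passed with DESeq2, 1 without the filter and 0 to 1 with single mice left out (1, Notum, without CCl4 + siLuc-LNP mouse 2). For CCl4 + siHAS2-LNP against CCl4, 2 passed with limma-voom and 1 to 5 with single mice left out. For the 4MU interaction, 1 passed with limma-voom and 0 to 3 with single mice left out. With single mice left out, 0 to 2 passed for CCl4 + 4MU against 4MU, 1 to 2 for CCl4 + siHAS2-LNP against siHAS2-LNP and 1 to 4 for CCl4 + 4MU against CCl4. With the replicate number as a block, 1 gene passed for CCl4 + siHAS2-LNP against siHAS2-LNP. Mice with the same number did not deviate together (83 pairs, r = -0.320 to 0.293, 17 over 0.1), so the numbers were not taken as pairs.

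Genes near no change over arms turned sign without passing: Axin2 was -0.077 with limma-voom, -0.0018 with filterByExpr, -0.045 without the libraries that stood apart and -0.075 to 0.097 with single mice left out; Lgr4 was -0.0033 without those libraries and -0.024 to 0.14 with single mice left out; Wnt2 was -0.21 to 0.13 and Rnf43 -0.038 to 0.16 with single mice left out. The Wnt2 ratio was -0.46 with sinusoidal markers. Of the 18 relations, 1 (Wnt9b with Lgr5 in CCl4 mice) passed when deviations from the group means were used. That test took the deviations as independent, so its p-value can be too small. With 2 CCl4 mice, and few counts of Wnt9b and Notumos, small changes could not be detected. The causes were not tested.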
